A study of Mus musculus with 8 samples.

Results

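Epidermal keratin and junction genes, the transcripts that mark the keratinocytes of skin and the contacts between them, were measured in Gr-1+ cells taken from skin wounds and bone marrow of mice. The members were 32 gene symbols, found as rows of the deposited table whose gene name, split at commas, held a member symbol and whose locus was at least 200 bp long. Of these symbols 31 had a row, and they filled 35 of the 39330 rows. The level of Lor, the gene of loricrin, is not analysed here.

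Gr-1+ cells carry the myeloid surface antigens Ly6G or Ly6C and were separated with magnetic beads. They came from C57BL/6 mice aged 8 to 16 weeks, of both sexes, in 4 groups of 2 libraries: wounds of diabetic mice (Lepr -/-, homozygous), wounds of nondiabetic mice (Lepr +/-, heterozygous), marrow of diabetic mice and marrow of nondiabetic mice. Mice of both genotypes thus carried at least 1 disrupted allele of Lepr, the leptin receptor gene, and none of the groups is wild type. Each mouse had 2 excisional wounds of 8 mm. The wounds were collected on day 3 together with a 2 mm border of surrounding skin and dissociated with enzymes, and marrow came from the same wounded mice. A library is a pool of 5 mice, with 10 mice per genotype, so n = 2 counts pools and every p-value measures the spread between pools and not between mice.

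The epidermis is a layered epithelium. Its basal cells sit on the basement membrane through hemidesmosomes, make the keratin pair Krt5 and Krt14 and divide. Cells that leave the basal layer switch to the pair Krt1 and Krt10, are joined by many desmosomes and build the cornified envelope of the skin surface, while keratinocytes at a wound edge switch on Krt6a, Krt16 and Krt17. Myeloid cells are not known for any of these programmes.

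Levels are FPKM, fragment numbers scaled to transcript length and to the size of the library, so they may be compared between genes per unit length. The number of reads is unknown, and 1 fragment was worth 0.98 to 1.82 times as much FPKM in the other libraries as in the first diabetic wound library, as read from the steps of low values. Lepr was listed at 1.37 and 1.22 FPKM in diabetic wound, 4.95 and 4.66 in nondiabetic wound, 0.0390 and 0.186 in diabetic marrow and 0.477 and 0.689 in nondiabetic marrow, lower in diabetic libraries of each tissue. Ly6g, which encodes the sorted antigen, was listed at 12.2 and 12.9 FPKM in diabetic wound and 17.2 and 19.2 in nondiabetic wound, against 566 and 569 in diabetic marrow and 808 and 900 in nondiabetic marrow. In bulk RNA of this kind, fewer cells of a type and less RNA per cell cannot be told apart.

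Of the 35 member rows, 28 entered the test, which took for each gene name the locus with the highest mean level and kept names with at least 1 FPKM in at least 2 of the 8 libraries. Differences are given on the log2(FPKM + 1) scale, which understates the change of low genes, with the standard error (SE) of a limma fit over 13041 gene names and p-values adjusted over all of them at a threshold of 0.05. Several rows do not stand for a whole gene. Krt14 and Krt16 share 1 row (chr11:100064290-100110147, mm9), and Krt5, Krt6a and Krt79 share another (chr15:101417964-101770760), whose coordinates the separate row of Krt1 also carries. The tested row of Dsg3 is a 339 bp locus 1718 bp beyond the annotated gene, and that of Pkp1 a 468 bp locus 1118 bp outside it, so the rows that cover the bodies of these genes are given beside them. The row of Jup is 356 bp long and lies within an exon but outside its coding sequence. The row of Dmkn is 1733 bp long and shares the first 1718 bp of a gene of 17311 bp.

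Wound pools held epidermal transcripts and marrow pools mostly did not. Summed over the 28 tested rows, the level was 929 and 906 FPKM in diabetic wound, 450 and 475 in nondiabetic wound, 77.8 and 76.6 in diabetic marrow and 80.0 and 86.1 in nondiabetic marrow. The joint keratin rows made up 61.3% of that sum in each diabetic wound library and 49.5% and 48.2% in the nondiabetic ones. In the wound libraries 27 of the 28 rows stood at 1 FPKM or more throughout. In marrow 16 rows stayed under 1 FPKM in all 4 libraries, and Krt1 and Dsc3 were listed at 0 in each of them.

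**Figure D1:**
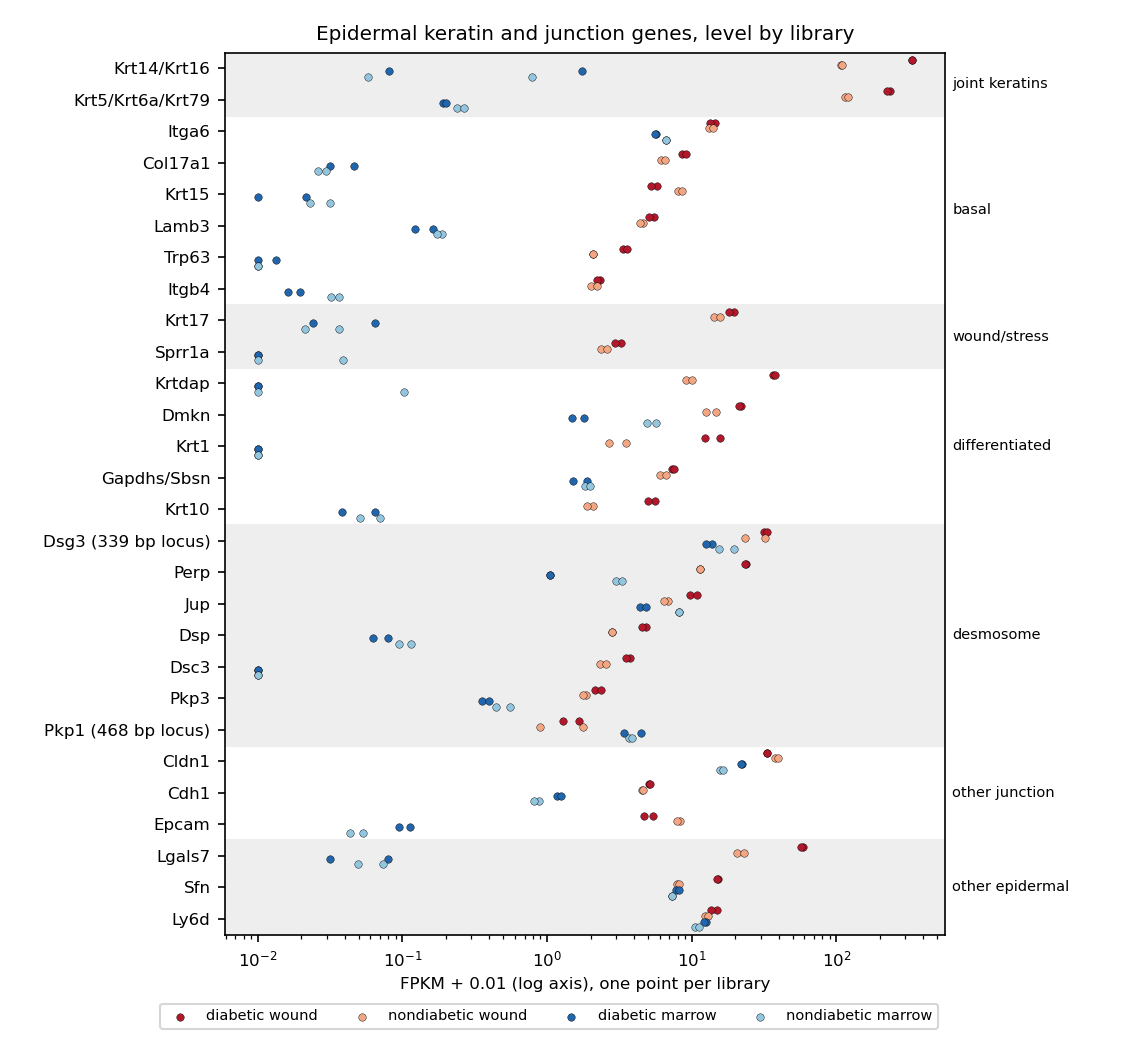
Level of each of the 28 tested rows in each library, as FPKM + 0.01 on a log axis, with 1 point per library, rows grouped by role and the groups told apart by colour. In all wound libraries 27 rows stand at 1 FPKM or more, in all marrow libraries 15 stay under 0.3 FPKM, and Krt14/Krt16 reaches 335 FPKM in diabetic wound.

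The joint keratin rows separated the tissues most. Krt5/Krt6a/Krt79 was listed at 234 and 223 FPKM in diabetic wound and 115 and 120 in nondiabetic wound, against 0.181 and 0.191 in diabetic marrow and 0.228 and 0.255 in nondiabetic marrow. Krt14/Krt16 was listed at 335 and 332 FPKM in diabetic wound and 108 and 110 in nondiabetic wound, against 1.73 and 0.0709 in diabetic marrow and 0.773 and 0.0477 in nondiabetic marrow. All wound pools lay above all marrow pools in both rows, and the marrow pools of Krt14/Krt16 differed widely within each genotype. The wound minus marrow difference of Krt5/Krt6a/Krt79 was 7.60 in diabetic and 6.58 in nondiabetic mice (SE 0.04, adjusted p = 4.33e-09 and 5.10e-09 by limma). That of Krt14/Krt16 was 7.61 and 6.33 (SE 0.45, adjusted p = 8.37e-06 and 1.96e-05 by limma). Both rows entered the test only through their wound values and had to differ, so these p-values add no support to the levels.

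Over the 28 rows, 27 were higher and 1 was lower in diabetic wound than in diabetic marrow, where 37.7% of all genes tested were higher and 47.8% lower. In nondiabetic mice 26 were higher and 2 lower, beside 32.8% and 53.8% of all genes. The median difference was 2.31 over the member rows and -0.18 over all genes in diabetic mice, and 1.61 and -0.38 in nondiabetic mice. Rows under 1 FPKM in marrow entered the test only through their wound values and had to differ, so these counts describe the rows and support nothing further. The median of all genes moved to 0.06 in diabetic and 0.07 in nondiabetic mice under median-ratio scaling, and the calls over all genes in nondiabetic mice split into 5754 higher and 5229 lower under it, against 4273 and 7022 without it.

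In marrow 10 of the 28 rows stood at 1 FPKM or more in all 4 libraries, Itga6, Ly6d and Sfn among them. Itga6, an integrin of the hemidesmosome that blood cells also carry, was listed at 14.5 and 13.4 FPKM in diabetic wound against 5.62 and 5.59 in diabetic marrow, and at 13.1 and 13.996 in nondiabetic wound against 6.60 in each nondiabetic marrow library. Ly6d, a GPI-anchored surface protein of stratified epithelia and of early B cells, showed little contrast, with 14.9 and 13.7 FPKM in diabetic wound against 12.5 and 12.1 in diabetic marrow, and 12.4 and 12.997 in nondiabetic wound against 10.6 and 11.2 in nondiabetic marrow. Sfn, the epithelial 14-3-3 sigma protein, was at 15.3 and 14.9 FPKM in diabetic wound against 7.78 and 8.13 in diabetic marrow, while its nondiabetic values of 7.85 and 8.10 in wound and 7.27 and 7.26 in marrow lay close together. The wound minus marrow difference of Sfn was 0.85 in diabetic mice and 0.12 in nondiabetic mice (SE 0.04; adjusted p = 2.53e-06 and 0.0265 by limma). The second of these did not pass without the second nondiabetic wound library or without either nondiabetic marrow library (adjusted p = 0.118, 0.0677 and 0.0711 by limma). Summed levels of B lineage genes, which had 6.82 to 8.44 FPKM in diabetic wound and 14.2 to 14.8 in nondiabetic wound against 68.0 to 70.6 in diabetic marrow and 43.7 to 48.3 in nondiabetic marrow, moved the other way, and their part in the level of Ly6d was not tested.

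The rows lower in wound were short loci. The 468 bp Pkp1 locus was listed at 1.67 and 1.29 FPKM in diabetic wound against 3.42 and 4.47 in diabetic marrow, and at 1.77 and 0.885 in nondiabetic wound against 3.65 and 3.85 in nondiabetic marrow. The row over the body of Pkp1, which encodes plakophilin 1 of the desmosomal plaque, went the opposite way, with 4.10 and 4.44 FPKM in diabetic wound and 2.22 and 2.39 in nondiabetic wound against 0.0044 and 0.0054 in diabetic marrow and 0.0099 and 0.0041 in nondiabetic marrow. The 356 bp row of Jup, the gene of plakoglobin, was higher in diabetic wound, at 9.74 and 10.8 FPKM against 4.40 and 4.79 in diabetic marrow, and lower in nondiabetic wound, at 6.80 and 6.39 FPKM against 8.19 and 8.13 in nondiabetic marrow. Its nondiabetic difference of -0.27 (SE 0.06, adjusted p = 0.00758 by limma) turned positive under both rescalings, at 0.21 and 0.23, so its direction there depends on the scaling.

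The comparison of diabetic with nondiabetic wound asks how the epidermal content of the Gr-1+ wound pools differed with diabetes. Of the 28 rows, 18 were higher in diabetic wound, 3 were lower and 7 did not pass the test. Over all genes tested 32.1% were higher and 21.7% lower. The median difference was 0.38 over the member rows and 0.07 over all genes, and the diabetic and nondiabetic pools did not overlap in 25 of the 28 rows, beside 78.9% of all genes. In either direction 53.8% of all genes passed the test. Under median-ratio scaling the calls over all genes split into 3266 higher and 3730 lower, against 4187 and 2826 without it, and 15 member rows were higher and 3 lower under it. With the locus inside the annotated gene taken for Dsg3, Pkp1 and every other name, 21 member rows were higher and 3 lower, beside 32.4% and 21.7% of all genes.

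**Figure D2:**
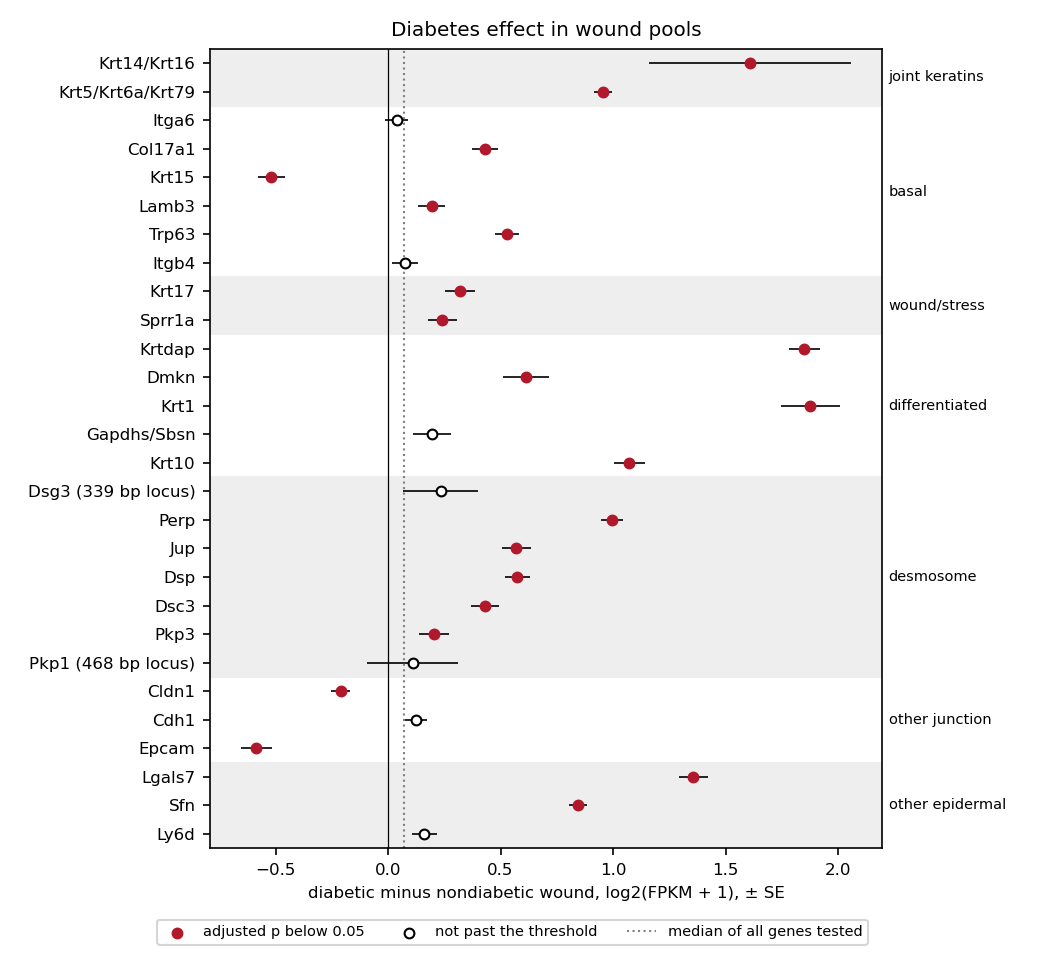
Difference between diabetic and nondiabetic wound for each tested row on the log2(FPKM + 1) scale, with bars of 1 SE, filled points past the threshold and a dotted line at the median of all genes, 0.07. Krt1 and Krtdap lie farthest to the right at 1.88 and 1.85, and Epcam and Krt15 farthest to the left at -0.59 and -0.52.

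Of the 28 rows, Krt1 and Krtdap, genes of differentiated epidermis, had the largest differences between diabetic and nondiabetic wound. Krt1, the keratin that replaces Krt5 above the basal layer, was listed at 15.7 and 12.4 FPKM in diabetic wound and 3.49 and 2.69 in nondiabetic wound. Krt10, its partner, was listed at 5.53 and 4.95 FPKM in diabetic wound and 2.06 and 1.87 in nondiabetic wound. Krtdap, a secreted protein of differentiating keratinocytes, had 36.5 and 37.9 FPKM in diabetic wound and 9.13 and 10.1 in nondiabetic wound. In each of these genes both diabetic pools lay above both nondiabetic pools, and the mean level was 4.54, 2.67 and 3.87 times as high for Krt1, Krt10 and Krtdap. The differences were 1.88 for Krt1 (SE 0.13, adjusted p = 1.40e-04 by limma), 1.07 for Krt10 (SE 0.07, adjusted p = 1.07e-04) and 1.85 for Krtdap (SE 0.07, adjusted p = 1.99e-05).

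Dmkn, which encodes the secreted protein dermokine of the upper epidermis, was listed at 21.8 and 21.1 FPKM in diabetic wound and 12.6 and 14.8 in nondiabetic wound, a difference of 0.61 (SE 0.10, adjusted p = 0.00350 by limma). Sbsn, the gene of suprabasin, shares its row with Gapdhs, a glycolytic enzyme of sperm. That row had 7.25 and 7.54 FPKM in diabetic wound and 6.03 and 6.65 in nondiabetic wound, pools that did not overlap, and its difference of 0.19 did not pass (SE 0.08, adjusted p = 0.0981). Of the 5 differentiated rows 4 were higher and none was lower, beside 32.1% and 21.7% of all genes. Their median difference was 1.07, beside 0.07 for all genes.

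Promoter windows of 4 differentiated or envelope genes and of the basal keratins Krt14 and Krt5 are shown to set these levels beside the sequence at the start of each gene. Each window runs from 250 bases before to 50 bases after a gene's start, read from RefSeq in build GRCm38.p6, and of the 32 symbols 17 had a window. Capitals mark TGANTCA, the site of AP-1 transcription factors, and TATAAA, the TATA box, each searched on both strands. Matches of TGANTCA cannot overlap each other, while matches of TATAAA on opposite strands can.
Krtdap, chr7:30787655-30787954, plus strand: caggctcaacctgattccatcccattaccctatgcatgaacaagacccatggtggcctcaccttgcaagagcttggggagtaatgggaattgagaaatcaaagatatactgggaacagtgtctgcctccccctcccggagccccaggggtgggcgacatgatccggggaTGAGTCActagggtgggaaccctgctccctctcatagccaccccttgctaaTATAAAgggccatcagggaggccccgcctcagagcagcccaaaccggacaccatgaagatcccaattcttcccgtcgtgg
Dmkn, chr7:30763506-30763805, plus strand: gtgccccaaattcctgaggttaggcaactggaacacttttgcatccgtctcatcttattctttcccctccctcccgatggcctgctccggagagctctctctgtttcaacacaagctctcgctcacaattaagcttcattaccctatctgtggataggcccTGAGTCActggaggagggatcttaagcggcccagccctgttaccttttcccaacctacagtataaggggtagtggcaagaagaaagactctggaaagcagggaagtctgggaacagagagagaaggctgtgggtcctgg
Sprr1a, chr3:92485832-92486131, minus strand: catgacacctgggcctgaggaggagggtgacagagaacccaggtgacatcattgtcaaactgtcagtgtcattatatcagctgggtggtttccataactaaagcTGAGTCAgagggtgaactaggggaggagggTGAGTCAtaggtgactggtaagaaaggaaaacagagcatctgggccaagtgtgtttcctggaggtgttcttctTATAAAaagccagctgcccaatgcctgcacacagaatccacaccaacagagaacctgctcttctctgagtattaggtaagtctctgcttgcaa
Krt10, chr11:99389315-99389614, minus strand: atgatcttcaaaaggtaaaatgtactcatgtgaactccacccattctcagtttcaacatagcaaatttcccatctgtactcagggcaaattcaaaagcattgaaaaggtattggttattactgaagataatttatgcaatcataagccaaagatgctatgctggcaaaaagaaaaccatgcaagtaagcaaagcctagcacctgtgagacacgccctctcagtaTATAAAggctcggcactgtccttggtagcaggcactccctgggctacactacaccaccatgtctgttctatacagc
Krt14, chr11:100205981-100206280, minus strand: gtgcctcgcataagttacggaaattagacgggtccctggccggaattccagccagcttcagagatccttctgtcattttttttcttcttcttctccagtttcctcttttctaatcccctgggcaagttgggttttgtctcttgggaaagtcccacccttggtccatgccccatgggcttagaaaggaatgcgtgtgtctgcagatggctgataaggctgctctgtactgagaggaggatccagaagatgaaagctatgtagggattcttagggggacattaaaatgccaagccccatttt
Krt5, chr15:101712856-101713155, minus strand: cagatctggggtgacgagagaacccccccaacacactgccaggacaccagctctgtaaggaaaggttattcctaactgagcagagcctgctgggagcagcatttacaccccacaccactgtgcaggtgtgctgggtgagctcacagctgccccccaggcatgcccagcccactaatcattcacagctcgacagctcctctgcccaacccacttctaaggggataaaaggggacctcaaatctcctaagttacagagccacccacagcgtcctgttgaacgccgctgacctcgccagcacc
TGANTCA was present for 5 of the 17 symbols (Krtdap, Dmkn, Sbsn, Sprr1a and Lor), each of them a gene of differentiated epidermis or of the cornified envelope, and in 7.81% of all 32851 windows of that length. TATAAA was present for 5 of the 17 symbols and in 13.6% of all windows. GGGCGG, the GC box, which is not marked, was also searched on both strands, and was present for 5 of the 17 symbols and in 35.7% of all windows. Krt10, a differentiated gene whose level was also higher in diabetic wound, has no TGANTCA in its window. The 17 symbols had 20 windows, and a symbol was counted if any of its windows held a match. Shares of symbols and of single windows are therefore not of the same unit, and no excess over all windows was tested. A match is a description of these letters and not a binding site, and a window without it says nothing of AP-1.

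Basal genes were divided. Trp63, the transcription factor p63 that maintains the basal layer, was listed at 3.33 and 3.54 FPKM in diabetic wound and 2.08 and 2.06 in nondiabetic wound. Col17a1, the transmembrane collagen of the hemidesmosome, was listed at 8.59 and 9.17 FPKM in diabetic wound and 6.15 and 6.51 in nondiabetic wound. Both were higher in each diabetic pool, by 0.53 for Trp63 and 0.43 for Col17a1 (SE 0.05 and 0.06, adjusted p = 5.32e-04 and 0.00144 by limma). Lamb3, a chain of laminin 332, was higher by a narrow 0.19 (5.51 and 5.05 FPKM in diabetic wound, 4.57 and 4.40 in nondiabetic wound, SE 0.06, adjusted p = 0.0358 by limma), and this call was lost without any single library except the second diabetic wound library (adjusted p = 0.0519 to 0.164). With the loci of Lamb3 summed the difference was 0.01 (adjusted p = 0.907, in a range of 0.0165 to 0.907 over its settings other than a minimum difference).

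Krt15, a keratin of basal cells and of the hair follicle bulge, went the other way. It was listed at 5.72 and 5.23 FPKM in diabetic wound and 8.05 and 8.50 in nondiabetic wound, and was lower by -0.52 (SE 0.06, adjusted p = 9.07e-04 by limma). The hemidesmosomal integrins did not pass: Itga6 differed by 0.04 (SE 0.05, adjusted p = 0.554) and Itgb4, listed at 2.33 and 2.20 FPKM in diabetic wound and 2.01 and 2.19 in nondiabetic wound, by 0.08 (SE 0.06, adjusted p = 0.320). The sign of Itga6 turned negative under both rescalings, at -0.01 and -0.06. The hair follicle gene Sox9 was also lower, at 1.55 and 1.36 FPKM in diabetic wound and 2.89 and 3.45 in nondiabetic wound, and its part in the level of Krt15 was not tested. Of the 6 basal rows 3 were higher and 1 was lower, beside 32.1% and 21.7% of all genes, with a median difference of 0.13. In the mean over rows, the basal level minus the differentiated level was -1.16 and -1.12 in the diabetic wound libraries and -0.15 and -0.13 in the nondiabetic wound libraries, on the log2(FPKM + 1) scale. With the loci of each name summed, the means of these values were -0.60 in diabetic wound and 0.13 in nondiabetic wound, where the sign turned and a summed Sbsn row joined the differentiated list. Without summing, most of that contrast lay in the differentiated mean, 3.91 and 3.83 in diabetic wound and 2.74 and 2.76 in nondiabetic wound, while the basal mean was 2.75 and 2.72 in diabetic wound and 2.59 and 2.63 in nondiabetic wound. Krt5 and Krt14 stand outside these means because their rows are shared. In marrow the basal minus differentiated level, without summing, was -0.04 and -0.12 in diabetic mice and -0.28 and -0.36 in nondiabetic mice. The nondiabetic wound values of -0.15 and -0.13 lay within the range of the marrow libraries, so alone they show no balance of layers.

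**Figure D3:**
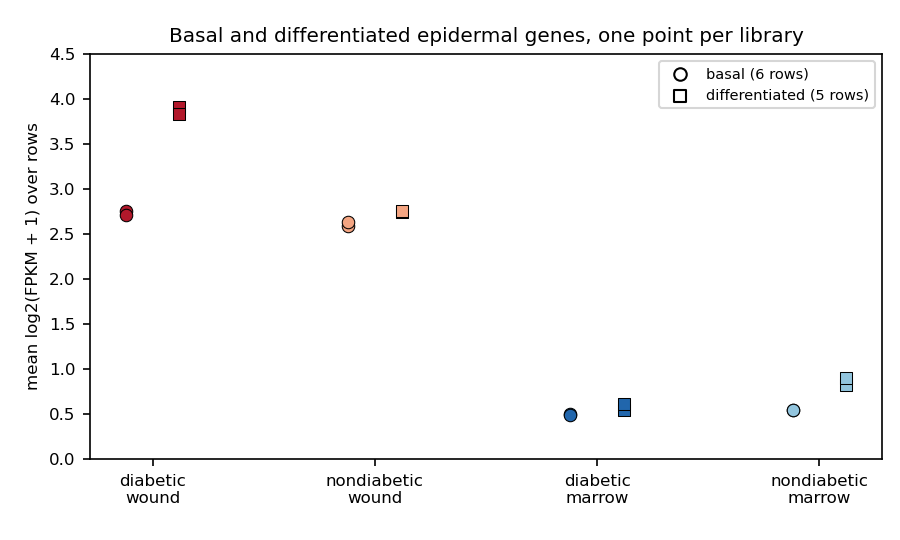
Mean log2(FPKM + 1) over the 6 basal rows (circles) and the 5 differentiated rows (squares), with 1 point per library in each of the 4 groups. The differentiated mean reaches 3.91 and 3.83 in diabetic wound and 2.74 and 2.76 in nondiabetic wound, while the basal means of the wound libraries lie between 2.59 and 2.75.

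The joint rows combine basal keratins with those of the wound edge, so that neither can be read alone. The mean of Krt14/Krt16 was 333 ± 2.24 FPKM in diabetic wound and 109 ± 1.37 in nondiabetic wound (SD, n = 2), 3.07 times as high, and that of Krt5/Krt6a/Krt79 was 229 ± 7.67 and 118 ± 2.92, 1.95 times as high. The difference of Krt5/Krt6a/Krt79 was 0.96 (SE 0.04, adjusted p = 2.45e-05 by limma). That of Krt14/Krt16 was 1.61 (SE 0.45, adjusted p = 0.0255 by limma), with pools that did not overlap. Its marrow pools stood far apart and entered the shared estimate of the spread, and it passed with the wound groups alone. It did not pass without any single wound library (adjusted p = 0.0868 to 0.0915 by limma) or with a pseudocount of 0.1 (adjusted p = 0.317), in a range of 2.66e-04 to 0.317 over its settings other than a minimum difference. Coding sequences of Krt14 and Krt16 are 86.4% identical with a shared run of 134 bases, those of Krt5 and Krt6a 81.9% with a run of 140 bases, and those of Krt6a and Krt6b, which has no row of its own, 97.8% with a run of 280 bases. Reads of these paralogs may have been split or shared between the rows in the authors' counting.

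Krt17, the third wound-edge keratin, has a row of its own and differed less than the joint rows. It was listed at 19.7 and 18.2 FPKM in diabetic wound and 14.3 and 15.7 in nondiabetic wound, a difference of 0.32 (SE 0.07, adjusted p = 0.00904 by limma). Sprr1a, a small proline-rich precursor of the cornified envelope that wounding induces, was listed at 3.25 and 2.96 FPKM in diabetic wound and 2.36 and 2.59 in nondiabetic wound, a difference of 0.24 (SE 0.06, adjusted p = 0.0222 by limma). In both genes the pools did not overlap. Neither passed without the first diabetic or without the first nondiabetic wound library (adjusted p = 0.0577 and 0.0504 for Krt17, 0.0999 and 0.0945 for Sprr1a, by limma).

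The 5 desmosomal rows that lie on their gene were each higher in diabetic wound. Dsp, the gene of desmoplakin, which ties the desmosome to keratin filaments, was listed at 4.83 and 4.49 FPKM in diabetic wound and 2.79 and 2.81 in nondiabetic wound. Dsc3, a desmosomal cadherin of the lower epidermis, was listed at 3.74 and 3.49 FPKM in diabetic wound and 2.30 and 2.54 in nondiabetic wound. Perp, a membrane protein of desmosomes and a target of p63, had 23.7 and 23.5 FPKM in diabetic wound and 11.4 and 11.3 in nondiabetic wound. These genes differed by 0.57, 0.43 and 0.99 (SE 0.06, 0.06 and 0.05, adjusted p = 4.58e-04, 0.00197 and 4.44e-05 by limma), and no pools overlapped.

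Jup differed by 0.57 (SE 0.06, adjusted p = 8.39e-04 by limma) with the values given above. Pkp3, the gene of plakophilin 3, was listed at 2.14 and 2.35 FPKM in diabetic wound and 1.86 and 1.77 in nondiabetic wound, and its difference of 0.20 passed narrowly (SE 0.07, adjusted p = 0.0440 by limma) and did not pass without any single wound or diabetic marrow library (adjusted p = 0.0606 to 0.177). The calls on Lamb3, Sprr1a and Pkp3 were also lost under both rescalings (adjusted p = 0.0547 to 0.173 by limma). Of the 7 desmosomal rows 5 were higher and none was lower, beside 32.1% and 21.7% of all genes, with a median difference of 0.43. The other two are the loci outside the genes, at 0.23 for Dsg3 and 0.11 for Pkp1 (SE 0.17 and 0.20, adjusted p = 0.280 and 0.678 by limma). The row over the body of Dsg3, a desmosomal cadherin of the basal layers, was listed at 3.06 and 3.07 FPKM in diabetic wound and 1.49 and 1.55 in nondiabetic wound. When every named row was tested, it was higher by 0.69 (SE 0.06, adjusted p = 4.38e-04) and the body of Pkp1 by 0.67 (SE 0.07, adjusted p = 7.97e-04 by limma).

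The remaining contact proteins did not follow. Epcam, an adhesion protein of simple epithelia, hair follicles and Langerhans cells, was listed at 5.37 and 4.70 FPKM in diabetic wound and 8.24 and 7.85 in nondiabetic wound. Cldn1, a claudin of epidermal tight junctions, was listed at 33.2 and 33.1 FPKM in diabetic wound and 37.5 and 39.6 in nondiabetic wound. Both were lower in diabetic wound, by -0.59 for Epcam (SE 0.07, adjusted p = 9.59e-04 by limma) and -0.21 for Cldn1 (SE 0.04, adjusted p = 0.00618). Cdh1, the gene of E-cadherin in adherens junctions, was listed at 5.02 and 5.16 FPKM in diabetic wound and 4.54 and 4.63 in nondiabetic wound, and its difference of 0.12 did not pass (SE 0.05, adjusted p = 0.0847). Langerhans and dendritic genes were lower alongside Epcam, in 9 of 10 tested rows, with sums of 477 to 491 FPKM in diabetic wound and 889 to 957 in nondiabetic wound. Most of these sums lay in Cd74, at 332 and 319 FPKM in diabetic and 536 and 579 in nondiabetic wound. Marrow also held Cd74, at 79.3 and 80.1 FPKM in diabetic and 81.7 and 85.8 in nondiabetic mice, so the sums are not particular to Langerhans cells. The part of these genes in the level of Epcam was not tested.

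Lgals7, the gene of galectin 7, a lectin of stratified epithelia, was listed at 58.5 and 56.7 FPKM in diabetic wound and 20.7 and 23.1 in nondiabetic wound. It was the highest member row with a single gene name in diabetic wound, at 2.63 times its nondiabetic level, and differed by 1.36 (SE 0.06, adjusted p = 3.60e-05 by limma). Sfn differed by 0.84 (SE 0.04, adjusted p = 3.51e-05 by limma) and Ly6d by 0.16, which lay just above the threshold (SE 0.06, adjusted p = 0.05004 by limma).

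Of the 28 rows, 2 were higher in diabetic marrow and 4 were lower, beside 13.7% and 32.8% of all genes, with medians of -0.01 and -0.09. These 6 were among the 12 rows that reached 1 FPKM in at least 1 marrow library. The other 16 rows entered the test only through their wound values and had little room to differ in marrow, with differences between -0.12 and 0.07, so their not passing says nothing about marrow. Dmkn was listed at 1.48 and 1.79 FPKM in diabetic marrow and 4.89 and 5.62 in nondiabetic marrow, and Perp at 1.04 in each diabetic marrow library and 2.97 and 3.31 in nondiabetic marrow. Both were lower in each diabetic marrow pool, by -1.25 for Dmkn (SE 0.10, adjusted p = 3.31e-04 by limma) and -1.02 for Perp (SE 0.05, adjusted p = 5.73e-05), with Jup at -0.71 and Itga6 at -0.20. Cldn1 was higher at 22.3 and 21.9 FPKM in diabetic marrow against 15.7 and 16.5 in nondiabetic marrow (0.43, SE 0.04, adjusted p = 5.21e-04 by limma), and Cdh1 was higher at 1.17 and 1.23 FPKM against 0.872 and 0.803 in nondiabetic marrow (0.26, SE 0.05, adjusted p = 0.00810). The call on Itga6 was lost under both rescalings and without any single marrow library. Over all genes in marrow, 1783 were higher and 4282 lower, against 2817 and 2550 under median-ratio scaling, with 4 member rows higher and 3 lower under it.

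Whether the diabetes effect differed between the tissues was tested as the effect in wound minus that in marrow. Of the 28 rows 16 had a higher effect in wound and 3 a lower one, beside 39.1% and 19.4% of all genes, with medians of 0.42 and 0.19. For the 16 rows under 1 FPKM in all marrow libraries, of which 11 were higher and 2 lower, this value largely restates the effect in wound. Among the other 12 rows 5 were higher and 1 was lower. Perp had the highest difference, 2.01 (SE 0.07, adjusted p = 2.89e-05 by limma), since its effect was 0.99 in wound and -1.02 in marrow. Dmkn followed the same pattern, with effects of 0.61 in wound and -1.25 in marrow and a difference of 1.86 (SE 0.14, adjusted p = 2.28e-04). Cldn1 had effects of -0.21 in wound and 0.43 in marrow, a difference of -0.65 (SE 0.06, adjusted p = 3.54e-04). For Krt14/Krt16 the difference of 1.28 did not pass (SE 0.64, adjusted p = 0.131), and it passed without the first diabetic marrow library (1.96, adjusted p = 0.0127) and with a pseudocount of 5 (1.46, adjusted p = 0.00126, by limma). Over all genes 5099 were higher and 2533 lower, against 3326 and 3811 under median-ratio scaling, which moved the median of all genes by the whole of 0.19 and 13 member rows were higher and 5 lower under it.

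Other genes of the same structures were counted over whole lists, which were chosen with earlier results of these data known. The genes named from a list are among the up to 3 with its smallest p in diabetic minus nondiabetic wound. They were thus picked by how they moved and add no support to the counts. The counts stand beside 32.1% of all genes higher and 21.7% lower in diabetic wound. In the list of further desmosomal genes 3 of 5 tested rows were higher in diabetic wound and none was lower, with Evpl, the plaque protein envoplakin, at 0.47, Pkp4 at 0.37 and Dsg1a at 0.32 (adjusted p = 0.00572, 0.0203 and 0.00880 by limma). Of 9 rows of late differentiation 7 were higher and 1 was lower, with a median of 0.76. Elovl4, an elongase of the very long fatty acids of the skin barrier, was listed at 2.93 and 3.07 FPKM in diabetic wound and 0.226 and 0.355 in nondiabetic wound, and Sprr2d, an envelope precursor, at 4.09 and 3.90 FPKM in diabetic wound and 0.931 and 0.962 in nondiabetic wound. The exception was Asprv1, an epidermal protease, at 182 and 181 FPKM in diabetic wound and 309 and 317 in nondiabetic wound (-0.78, SE 0.04, adjusted p = 4.13e-05 by limma), but it was also high in marrow, at 308 and 310 FPKM in diabetic and 199 and 191 FPKM in nondiabetic marrow. Of 11 rows of epidermal transcription and splicing factors 6 were higher and 1 was lower, with Grhl3, a grainyhead factor of barrier formation, at 1.05 and Elf3, an ETS factor of epithelia, at -0.58. The sums of these rows were 23.0 to 23.9 FPKM in diabetic and 18.8 to 19.4 in nondiabetic wound. In marrow they were higher, at 33.7 to 37.9 FPKM in diabetic and 39.1 to 40.9 in nondiabetic mice. Among 10 further rows of hemidesmosome and basement membrane 2 were higher and 6 lower, with Itga3 at 0.46 and Lama5, on an 897 bp locus, at -1.86. Of 9 further wound-edge rows 6 were higher and 2 lower, with Areg, the growth factor amphiregulin, at 1.14, and Lcn2, which neutrophils also make, at -0.96. Their sums were 1450 to 1463 FPKM in diabetic and 1550 to 1591 in nondiabetic wound. Marrow held more, at 2427 to 2520 FPKM in diabetic and 3394 to 3550 in nondiabetic mice, so these sums are not particular to keratinocytes. Stfa1 had 8.45 and 8.38 FPKM in diabetic and 2.18 and 2.04 in nondiabetic wound. It also had 28.8 and 29.3 FPKM in diabetic and 3.27 and 3.44 in nondiabetic marrow. Of 13 further rows of epithelial junctions 2 were higher and 4 lower, with Gjb2, the gap junction protein connexin 26, at 0.96.

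Keratins of simple epithelia, which the layers of the epidermis mostly lack, ran against the epidermal ones in the 4 rows tested. All 4 tested rows were lower in diabetic wound, with a median difference of -2.96, and their summed level was 2.22 to 11.8 FPKM in diabetic wound and 162 to 184 in nondiabetic wound. Krt19 was listed at 0.203 and 0.121 FPKM in diabetic wound and 6.70 and 7.48 in nondiabetic wound (-2.80, SE 0.07, adjusted p = 7.71e-06 by limma). Krt18 was listed at 0 and 0.000764 FPKM in diabetic wound and 7.40 and 8.11 in nondiabetic wound, and a further row of Krt18 at 0.128 and 0.135 FPKM in diabetic wound and 5.32 and 5.05 in nondiabetic wound. Krt7, on a 762 bp locus, was listed at 0.184 and 0.219 FPKM in diabetic wound and 2.26 and 2.36 in nondiabetic wound. Its marrow values lay between 1.80 and 3.29 FPKM. Krt8, named after its values were seen, was listed on a 317 bp locus at 1.83 and 11.4 FPKM in diabetic wound and 167 and 144 in nondiabetic wound. This locus made up most of the summed level in each wound library. Krt23, also on that list and also named after its values were seen, did not enter the test and went the other way. It was listed at 1.83 and 0.561 FPKM in diabetic wound and 0 and 0.413 in nondiabetic wound. Cldn7, a claudin of simple epithelia, came from the list of further epithelial junctions, where 2 of 13 tested rows were higher and 4 lower. Its row, a 633 bp locus, was listed at 0.160 and 0.117 FPKM in diabetic wound and 2.21 and 2.86 in nondiabetic wound. Epcam and Krt15 were lower in diabetic wound, as were Krt19, Krt18, Krt7, Krt8 and Cldn7. By contrast Krt1, Krt10, Krt5/Krt6a/Krt79, Krt14/Krt16 and the untested Krt23 were higher. These genes are grouped here by direction only, which does not place them in the same cell type. The part of simple epithelial genes in the levels of the member genes was not tested.

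**Figure D4:**
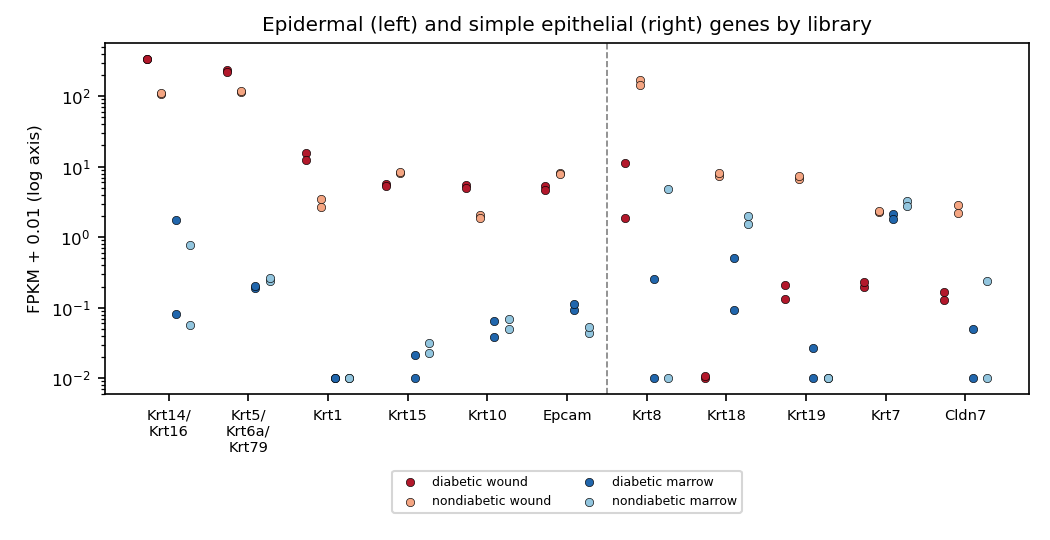
Level of 6 member rows (left of the dashed line) and 5 simple epithelial genes (right of it) in each library, as FPKM + 0.01 on a log axis, with 1 point per library. Krt23, which went the other way from these 5, is not shown. In diabetic wound Krt14/Krt16, Krt5/Krt6a/Krt79, Krt1 and Krt10 are higher than in nondiabetic wound, and Krt15, Epcam, Krt8, Krt18, Krt19, Krt7 and Cldn7 are lower, with Krt18 at 0 and 0.000764 FPKM.

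Markers of other cell types were counted in the same comparison, beside 32.1% of all genes higher and 21.7% lower in diabetic wound, and their part in the values of the member genes was not tested. No row of these lists was at 0 in all 4 wound libraries. Of 14 fibroblast rows 7 were lower and 2 higher, with sums of 330 to 349 FPKM in diabetic wound and 469 to 472 in nondiabetic wound. Of 12 endothelial rows 8 were higher and none was lower, with sums of 144 FPKM in each diabetic wound library and 75.6 to 77.2 in nondiabetic wound. All 5 sebaceous rows were higher, with Scd1 at 1.82 and Elovl3 at 1.68. Their sums were 45.1 to 46.0 FPKM in diabetic and 26.9 to 29.1 in nondiabetic wound. The sums in marrow were higher, at 288 to 295 FPKM in diabetic and 431 to 446 in nondiabetic mice, so the sums are not particular to sebaceous cells here. Row by row, 3 of the 5 were higher and 2 lower in wound than in marrow in each genotype. Both tested hair follicle rows were lower, with Sox9 at -0.76. The other was Krt86, at 0.506 to 0.839 FPKM in the wound libraries but 4.80 to 6.34 in the marrow libraries. The genes of the neutrophil and Gr-1+ list had 4 of 14 rows higher and 8 lower, with sums of 1504 to 1515 FPKM in diabetic wound and 1537 to 1631 in nondiabetic wound. Of 8 megakaryocyte and platelet rows 2 were higher and 1 was lower, with a median difference of 0.03. Their sums were 516 to 532 FPKM in diabetic wound and 102 to 110 in nondiabetic wound. Most of these sums lay in Ppbp (244 and 237 FPKM in diabetic, 29.1 and 28.4 in nondiabetic wound) and Pf4 (280 and 272, 65.4 and 73.9). Itgb3 went the other way, at 3.03 and 2.92 FPKM in diabetic wound and 3.58 and 3.84 in nondiabetic wound. Of 3 melanocyte rows 1 was lower, with sums of 10.5 to 11.3 FPKM in diabetic wound and 11.9 to 15.8 in nondiabetic wound.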

How the data were processed

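The members and gene lists were chosen with earlier results of these data known. The deposited table holds FPKM per assembled locus. Per the submitters' processing notes, the authors' tools were TopHat and Cufflinks and the build was mm9. Their versions, settings and whether strand was used are not given in the sources used here. Depth per library is unknown, so counting error could not be given; the sum of FPKM per library was 1544804 to 2788448. Named loci of at least 200 bp with an estimate marked OK in all 8 libraries were kept, with the locus of the highest mean for each name: of 15192 names 520 were left out for their status, and 13041 with at least 1 FPKM in at least 2 libraries were tested. A limma 3.58.1 model (R 4.3.3, trend, not robust) of log2(FPKM + 1) with a mean per group had 4 residual degrees of freedom and 5 two-sided contrasts, with Benjamini-Hochberg adjustment over all genes; the steps were tested on simulated data. Basal and differentiated levels were averaged per library with no test. Every member row is named or counted. Outside the members, up to 3 genes per list with the smallest p in diabetic minus nondiabetic wound were named, plus Lepr and Ly6g. Gene positions came from GENCODE on mm9 and figures from matplotlib 3.10.9. The alternatives were other pseudocounts, filters and scalings, fits without trend, robust, or of the groups alone, summed loci, loci of any length or status, replicate blocks, a minimum difference and each library left out. Testing every named row, taking loci inside the annotated gene and crossing the blocks were added after seeing the data.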

Additional observations from a re-analysis of the deposited data

Results flagged for a closer look

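The diabetes effect (diabetic minus nondiabetic) differed between wound and marrow in 19 of the 28 tested member rows by the limma test of the difference itself, beside 58.5% of all genes tested. Values are the effect in wound minus that in marrow, on the log2(FPKM + 1) scale. It was higher in wound for Perp (2.01), Krtdap (1.91), Krt1 (1.88), Dmkn (1.86), Lgals7 (1.36), Jup (1.28), Krt10 (1.08) and Krt5/Krt6a/Krt79 (1.02). Smaller positive differences were found for Sfn (0.73), Dsp (0.62), Trp63 (0.53), Dsc3 (0.43), Col17a1 (0.42), Pkp3 (0.33), Krt17 (0.30) and Itga6 (0.24). It was lower in wound for Epcam (-0.66), Cldn1 (-0.65) and Krt15 (-0.50). Krt1 and Dsc3 were listed at 0 in all 4 marrow libraries, so their differences equal the effects in wound, and 16 rows, of which 13 passed, were under 1 FPKM in all marrow libraries. The calls on Itga6 and Krt17 were lost under both rescalings, with a replicate block on the mouse pool (adjusted p = 0.0516 and 0.0845) and without any single library other than the second of diabetic wound and the second of nondiabetic wound. That on Krt17 was also lost with a block on pool number (adjusted p = 0.0595). That on Pkp3 was lost under median-ratio scaling, with the crossed block (adjusted p = 0.0786) and without any single library other than the first of diabetic wound, the first of nondiabetic wound and the second of nondiabetic marrow. With a pseudocount of 0.1 the calls on Col17a1, Krt15 and Krt17 were lost (adjusted p = 0.121, 0.0824 and 0.574 by limma). Over the settings other than a minimum difference, the adjusted p ranged from 0.0247 to 0.915 for Itga6, 0.0165 to 0.574 for Krt17, 0.0167 to 0.115 for Pkp3, 0.00205 to 0.121 for Col17a1 and 0.00121 to 0.0824 for Krt15.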

How the results depend on the processing

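Over 115 named values and 2722 recomputations, 2539 kept direction and call, 141 lost the call, 31 gained it and 11 changed sign. With a mean FPKM of at least 5, 13 member rows were tested: 13 were higher and 0 lower in wound in diabetic mice, 12 and 1 in nondiabetic mice, 10 and 1 in diabetic wound, and 9 and 1 for the difference of effects. A minimum difference of 1 left 3 higher and 0 lower in diabetic wound and in the difference of effects, 0 in marrow, and 0 lower in wound in either genotype. The rows lower in nondiabetic wound than marrow were 1 under both rescalings, with summed loci and with loci inside the gene, and those lower in diabetic wound than marrow were 2 without a filter and 0 with loci inside the gene. Higher rows in diabetic marrow were 4 under both rescalings, and lower rows in the difference of effects were 5 under median-ratio scaling and with every named row. The basal minus differentiated level in diabetic wound was -1.27 and -0.82 with pseudocounts of 0.1 and 5, -1.22 under quantile scaling and -0.60 with summed loci, and in nondiabetic wound -0.16 and -0.091 with those pseudocounts and 0.13 with summed loci, where a summed Sbsn row joins the differentiated list.

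Sign changes were those of Jup in nondiabetic wound against marrow (0.21 and 0.23 when rescaled), of Pkp1 against marrow (1.71 in nondiabetic and 2.39 in diabetic mice inside the gene, 0.46 in diabetic mice when summed), of Itga6 in diabetic wound (-0.012 and -0.063 when rescaled, -0.015 to 0.093 leaving out each library) and of Pkp1 there (-0.17 to 0.39 leaving out each library). Leaving out each library gave 26 to 27 higher and 1 lower in wound in diabetic mice, 23 to 26 and 2 in nondiabetic mice, 13 to 17 and 3 in diabetic wound, 2 to 3 and 3 to 4 in diabetic marrow, and 14 to 17 and 3 for the difference of effects.

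Pool numbers were not shown to pair the libraries: correlations of the pool 1 minus pool 2 deviations between groups ranged from -0.33 to 0.23. A replicate block on pool number gave 18 higher and 3 lower in diabetic wound and a block on the mouse pool 27 higher in wound in diabetic mice; crossed blocks gave 27 and 25 higher in wound in diabetic and nondiabetic mice and 14 for the difference of effects. No paired analysis was possible between genotypes within a tissue because their pools are different mice, and the difference of effects could not be fitted from 2 groups alone. The causes of these changes were not tested. With 2 pools per group and no read numbers, the counting error of low values such as those of marrow is unknown.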

Other observations

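Several named loci did not enter the main test, those of Lamb3 because another locus of the same name was higher. Lamb3, a chain of the laminin that anchors basal cells, had 2 further rows. One held 0.558 and 0.857 FPKM in diabetic wound and 0.671 and 0.827 in nondiabetic wound, and the other 0.671 and 0.243 in diabetic wound and 1.08 and 1.22 in nondiabetic wound. The diabetic wound libraries lay on either side of both nondiabetic ones in the first of these rows and below both in the second.

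Sbsn, a secreted protein of the upper epidermis, had 3 rows of its own beside the one it shares with Gapdhs. They did not enter the main test because the row with the highest mean did not reach 1 FPKM in at least 2 libraries. The largest values of these 3 rows were in diabetic marrow, at 0.353 and 2.31 FPKM in 1 row. That row held 0.214 and 0 in diabetic wound, 0.515 and 1.17 in nondiabetic wound and 0 in both nondiabetic marrow libraries. The libraries of a group stood far apart in that row, and no difference was read from it.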
